A study of Mus musculus with 4 samples.

Results

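The colony stimulating factors and their receptors were followed through single-cell RNA sequencing of subcutaneous Lewis lung carcinoma (LLC) tumors taken 72 h after radiation. The 8 genes were chosen by name: the ligands Csf1 (ENSMUSG00000014599), Il34 (ENSMUSG00000031750), Csf2 (ENSMUSG00000018916) and Csf3 (ENSMUSG00000038067), and the receptor chains Csf1r (ENSMUSG00000024621), Csf2ra (ENSMUSG00000059326), Csf2rb (ENSMUSG00000071713) and Csf3r (ENSMUSG00000028859). All 8 were found by symbol among the 18605 genes that the 4 count tables share. LLC is a transplanted mouse lung carcinoma line, so the malignant cells come from 1 line and the immune, vascular and stromal cells from the host. The hosts were female C57/BL6N mice of 6 to 8 weeks. NT was the mock-treated control, a single library made from 3 tumors mixed together. RT was 24 Gy in 3 fractions of 8 Gy, with 3 libraries, each from a single tumor and named RT1 to RT3.

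CSF-1 (M-CSF), the product of Csf1, and IL-34, the product of Il34, both bind the receptor tyrosine kinase CSF-1R and keep monocytes and macrophages alive. GM-CSF, the product of Csf2, signals through a ligand-binding alpha chain (Csf2ra) and a beta chain (Csf2rb) that the receptors for IL-3 and IL-5 also use. G-CSF, the product of Csf3, acts on a homodimer of the Csf3r product and drives the making and release of neutrophils. In tumors these ligands are best known for feeding the pool of macrophages and granulocytic cells.

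After filtering, 55058 cells remained, with 9976 in NT, 15029 in RT1, 14993 in RT2 and 15060 in RT3. The libraries held 69266354, 77700882, 108699270 and 85051677 unique molecular identifiers (UMIs, each standing for 1 captured RNA molecule) in those cells. Between 175 and 274 barcodes were common to any pair of libraries. Cells with the same barcode were about as alike as cells with different ones (median r of 0.392 to 0.441 against 0.394 to 0.437). For the same barcode it was higher in some pairs (0.418 against 0.402 for RT1 with RT2) and lower in others (0.408 against 0.424 for NT with RT1). RT2 stood apart in its table, which listed 18605 genes against 32285 in the others and held no cell above 11.95% mitochondrial UMIs. Cells were sorted into classes by clustering without the 8 genes, and classes were named "-like" from marker genes. Tumor-like cells (24952) carried Rhox5 at 1058 to 1295 CPM (the UMIs of a gene scaled by all UMIs of the class in that library) and macrophage-like cells (6744) carried C1qb at 1880 to 4954 CPM. There were 5776 monocyte-like, 586 neutrophil-like, 771 conventional dendritic cell (DC)-like, 100 Ccr7 DC-like, 441 CD8 T-like, 524 NK-like, 317 gamma delta T-like, 135 Treg-like, 426 fibroblast-like and 312 endothelial-like cells. Another 4354 cells had tumor-like Rhox5 (926 to 1317 CPM) but were led by matrix genes such as Lum, and are called Lum-high cells without a type name. A further 3390 cells with markers of more than 1 family and 6099 shallow cells were kept apart. The shallow cells carried Rhox5 at 98.3% to 110% of the tumor-like level of their library, but were given no type name. Neutrophil-like cells were the least clean class. Their tumor markers summed to 1217 to 1554 CPM, against 2364 to 2422 CPM in tumor-like cells, and NT had only 23 of them.

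A level below is the CPM of all UMIs of a class in a library. It is given for NT and then for RT1, RT2 and RT3, always in that order, or as their mean ± SD (n = 3). Because NT is 1 library, a test of RT against NT would have no spread for NT, and none was made. Intervals are exact 95% Poisson intervals and cover counting error only. A gene was called past the fold when every RT library was at least 1.5 times higher, or lower, than NT. Since all RT libraries are set against the same NT library, their ratios are not independent. Because single libraries are summed, fewer cells of a type and less RNA per cell are told apart only where the level within a class is given.

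**Figure D1:**
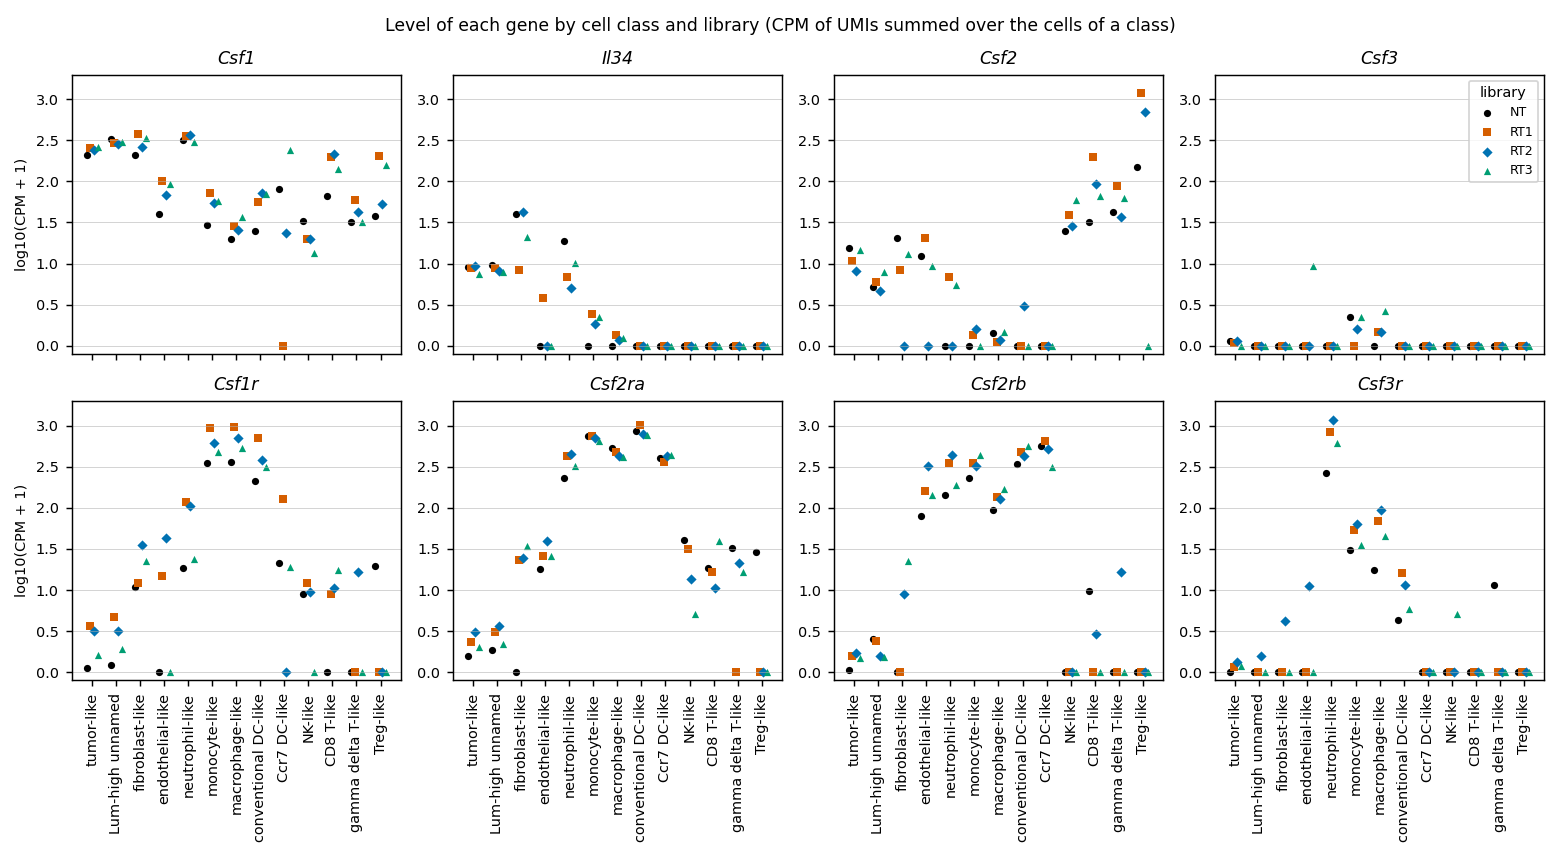
Level of each of the 8 genes in 13 cell classes, with 1 point per library (NT black, RT1 orange, RT2 blue, RT3 green); the vertical axis is log10(CPM + 1). Csf1 is spread over many classes, with the tumor-like points between 209 and 264 CPM, while the 4 receptors are highest in myeloid classes, with Csf2rb also in endothelial-like cells, and Csf3 is near 0 in all of them.

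The RefSeq promoter table (GRCm38.p6) held 4 of the 8 genes: Csf1, Csf2, Csf2ra and Csf3r. The letter patterns below were searched on both strands in the 250 bases upstream of each start: GAGGAA, the core of a PU.1-type site, and TTGCNNAA, a C/EBP-type site. The 2 receptor promoters are shown because PU.1 (Spi1) and C/EBP factors are the textbook regulators of myeloid receptor genes, and because these 2 receptors behaved differently in the myeloid cells below. Capitals mark GAGGAA on the strand shown. The Csf3r window is chr4:126024409-126024658 (plus strand) and the Csf2ra window is chr19:61228419-61228668 (minus strand), each read 5′ to 3′.
Csf3r: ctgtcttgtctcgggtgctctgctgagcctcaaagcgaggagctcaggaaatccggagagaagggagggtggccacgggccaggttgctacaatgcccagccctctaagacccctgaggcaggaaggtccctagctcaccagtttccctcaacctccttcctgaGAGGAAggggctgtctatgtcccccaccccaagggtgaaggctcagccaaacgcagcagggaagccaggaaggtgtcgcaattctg
Csf2ra: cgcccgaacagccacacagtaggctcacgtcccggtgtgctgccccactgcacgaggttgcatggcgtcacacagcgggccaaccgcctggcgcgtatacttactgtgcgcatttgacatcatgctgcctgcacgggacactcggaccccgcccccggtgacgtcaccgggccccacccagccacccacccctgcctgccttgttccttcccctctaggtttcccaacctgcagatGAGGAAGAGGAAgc

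Csf3r had 1 copy of GAGGAA, beginning 86 bases before the start, and Csf2ra had 2 copies side by side, the nearer beginning 8 bases before it. The Csf1 and Csf2 windows had 0 copies. GAGGAA was present in 23.3% of the 32851 windows in the table, so its presence does not single these promoters out. TTGCNNAA was present in 9.56% of all windows and, among these 4 genes, only in Csf2, 1 copy beginning 145 bases before the start. These are matches of letters, not measured binding.

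Csf1 was found chiefly in tumor-like cells. Tumor-like cells held 80.9% of its 13921 UMIs in NT, and 69.5%, 68.6% and 77.0% in RT. With the Lum-high cells added, these shares were 91.7%, 85.2%, 85.7% and 87.9%. The shallow cells, with tumor-like Rhox5 but no type name, held a further 5.24% in NT and 4.79%, 2.99% and 4.84% in RT. Myeloid classes together held 0.697% in NT and 3.43%, 3.73% and 1.93% in the RT libraries.

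In tumor-like cells Csf1 stood at 209 CPM in NT (95% interval 205 to 212) and at 254, 238 and 264 CPM in RT. Every RT library was above NT, by a mean log2 ratio of 0.27 ± 0.07 (SD, n = 3), which was not past the fold and was 0.16 as a mean over cells. In the Lum-high cells the order was the other way round, with 326 CPM in NT and 291 ± 10.7 CPM in RT (log2 ratio -0.16 ± 0.05). Fibroblast-like cells had Csf1 at 207 CPM in NT, from only 21 UMIs, and at 324 ± 57.6 CPM in RT. Among the named classes, which leave out the Lum-high cells (mean 299 CPM), the order by mean over the 4 libraries was neutrophil-like (336 CPM), fibroblast-like (294), tumor-like (241) and CD8 T-like cells (155), and the ranges of neighbouring classes in this order overlapped.

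The tumor-like sub-clusters did not share 1 Csf1 level. In NT the lowest was sub-cluster 10, led by the mitotic genes Pif1 and Kif20a, at 73.2 CPM, followed by sub-cluster 6 (Car6, Trib3) at 115 CPM and the cycling sub-clusters 0 (Cdk1, Tyms) and 2 (Aspm, Cenpf) at 136 and 143 CPM. The highest in NT were sub-clusters 3 (Fn1, Dcn) at 314 CPM, 4 (ribosomal protein genes) at 300.2 CPM and 5 (interferon-induced Ifit3 and Rsad2) at 299 CPM. Sub-cluster 3 had fibroblast genes (Dcn, Lum) among its leading genes and was nearest to the fibroblast markers, with a log2 score of 0.983, just under the score of 1 from which sub-clusters were set apart as mixed. It was kept as tumor-like, with Rhox5 at 869 to 1161 CPM, and its place in that class is uncertain. The RT libraries all stood above NT in sub-clusters 0, 2, 6 and 10, where Csf1 was low in NT, and in the interferon-led sub-cluster 5. The same NT value sets this order and is the base of the comparison. A low NT value therefore favours RT above it, and no weight is put on the pattern.

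In the RT libraries sub-cluster 10 stood at 157, 156 and 141 CPM and sub-cluster 2 at 244, 209 and 258 CPM. In sub-cluster 3 the NT value lay within the RT range of 285 to 330.2 CPM. Sub-cluster 4 was lower in every RT library, with 223, 239 and 246 CPM. In all, 5 of the 10 tumor-like sub-clusters had Csf1 above NT in every RT library and 1 had it below. With the sub-cluster makeup (by UMIs) held at that of NT, the log2 ratio was 0.25 ± 0.10, close to the 0.27 measured.

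**Figure D2:**
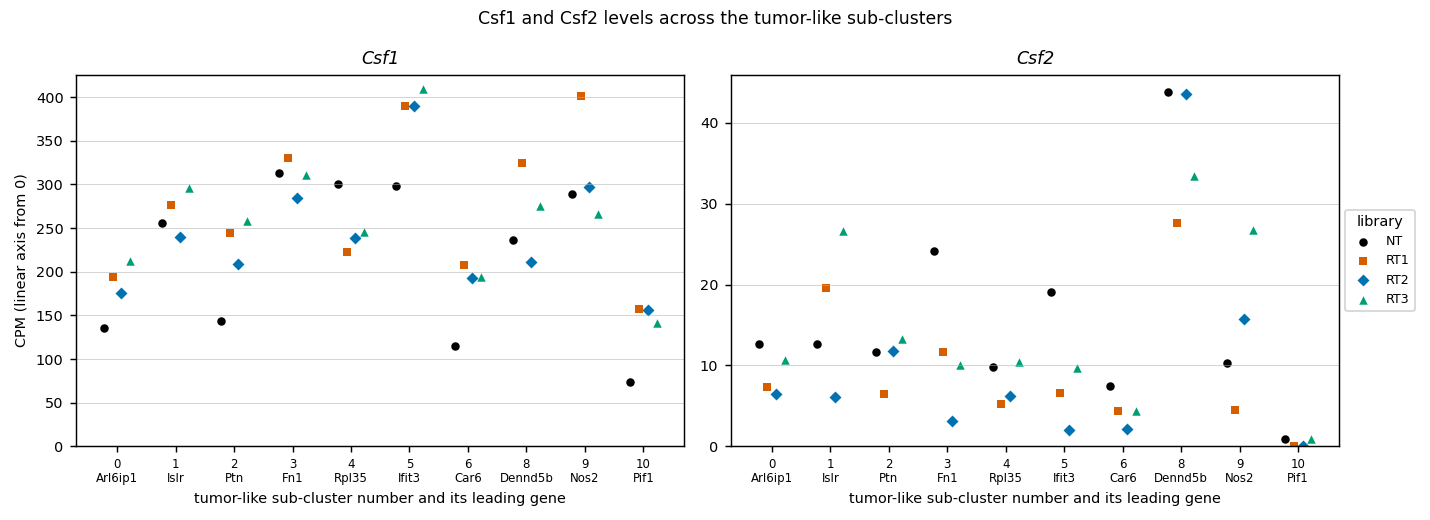
Csf1 (left) and Csf2 (right) in the 10 tumor-like sub-clusters, each labelled with its number and leading gene; points are libraries and the axis is CPM from 0. The NT points of Csf1 lie below the RT points in sub-clusters 0, 2, 5, 6 and 10 and above them in sub-cluster 4, and Csf2 peaks in sub-cluster 8.

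Among lymphoid cells, Csf1 was highest by mean in the CD8 T-like class, with an overlapping range in the Treg-like class (37.1 to 205 CPM). Its CD8 T-like level was 66.2 CPM in NT (15 UMIs) and 197, 213 and 142 CPM in RT, so all RT libraries were higher, with a log2 ratio of 1.46 ± 0.31. NK-like cells had 31.8 CPM in NT, from 4 UMIs, and 16.8 ± 3.72 CPM in RT. Rhox5, taken as a measure of tumor RNA, stood in CD8 T-like cells at 3.22% to 10.7% of its tumor-like level, and at that rate tumor RNA would carry 6.96 to 28.2 CPM of Csf1. By the same measure tumor RNA would carry 117 to 154 of the 304 to 370 CPM in neutrophil-like cells. In neutrophil-like cells under 1000 UMIs, with Rhox5 at 152 to 317 CPM, Csf1 was 546 CPM in NT and 607, 610 and 405 CPM in RT. In the deeper ones, with Rhox5 at 706 to 898 CPM, Csf1 was 263 CPM in NT and 263, 306 and 269 CPM in RT. The NT values rest on 17 and 6 cells.

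In monocyte-like cells Csf1 was 28.1 CPM in NT (23 UMIs) and 71.6, 53.4 and 56.6 CPM in RT. This was past the fold, with a log2 ratio of 1.09 ± 0.22 (1.87 after thinning each cell to 2000 UMIs), and it was the only 1 of the 5 members tested in monocyte-like cells to be so. There, 12.6% of the 6820 genes tested were past the fold upwards and 2.98% downwards. Tumor RNA at the rate of Rhox5 would carry 10.1 CPM in NT and 10.4 to 18.1 CPM in RT. In macrophage-like cells Csf1 was low, at 18.7 CPM in NT and 28.0, 24.2 and 35.7 CPM in RT, and Rhox5 would carry 5.26 CPM in NT and 5.93 to 9.64 CPM in RT. Conventional DC-like cells had 23.6 CPM in NT (7 UMIs) and 65.0 ± 8.66 CPM in RT.

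Il34, the second ligand of CSF-1R, was scarce. Over all kept cells it gave 533 UMIs in NT and 520, 727 and 503 in RT, and tumor-like with Lum-high cells held 84.2% to 90.2% of them. Its tumor-like level was 8.16 CPM in NT and 7.82, 8.24 and 6.45 CPM in RT, so NT lay within the RT range. The log2 ratio there was -0.13, and -0.44 after thinning each cell to 2000 UMIs. Fibroblast-like cells were higher by mean, at 39.4 CPM in NT from 4 UMIs and 22.8 ± 17.1 CPM in RT. All lymphoid classes and both DC-like classes were at 0 in every library.

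Csf2 was found at a low level in tumor-like cells, of which 2.95% to 5.33% had a UMI, and at a high level in a few lymphocytes. Tumor-like and Lum-high cells held 88.6% of the Csf2 UMIs in NT and 75.3%, 72.0% and 87.8% in RT, while lymphoid classes held 3.31% in NT and 10.6%, 19.8% and 4.37% in RT. Myeloid classes held at most 1.01%.

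In tumor-like cells the level of Csf2 was 14.5 CPM in NT and 9.63, 7.10 and 13.5 CPM in RT. All RT libraries were lower than NT, but RT3 only slightly. The log2 ratio of -0.58 ± 0.46 moved to -0.35 without RT2 and to -0.81 without RT3. It was -1.01 after thinning each cell to 2000 UMIs, -0.87 as a mean over cells and -0.34 without the Harmony alignment of the libraries. The highest level was in sub-cluster 8, led by Dennd5b, at 43.8 CPM in NT and 27.6, 43.6 and 33.4 CPM in RT. In the interferon-led sub-cluster 5, Csf2 was 19.1 CPM in NT and 6.55, 2.02 and 9.71 CPM in RT, while Csf1 in the same sub-cluster was higher in RT (390, 390 and 409 CPM against 299 CPM). Of the 10 tumor-like sub-clusters, 5 had Csf2 below NT in every RT library and 0 had it above.

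Of the 2 members tested in tumor-like cells, Csf1 and Csf2, 0 were past the fold, where 3.7% of the 7819 genes tested were higher and 0.678% lower. Csf1 was above NT in every RT library, as were 25.5% of the genes tested, and Csf2 was below NT in every RT library, as were 37.2%.

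The lymphocyte signal of Csf2 rested on very few cells. The Treg-like class carried Foxp3, Cd4, Il13 and Areg among its leading genes. By marker score it was nearest to Treg (4.42), with type 2 innate lymphoid cells (ILC2) next (2.97). Which type the cells with Csf2 belonged to was not tested. In this class Csf2 was 148 CPM in NT, 1189.7 and 694 CPM in RT1 and RT2, and 0 in RT3. All 16 UMIs of NT came from 1 of 50 cells, and 27 of the 29 UMIs of RT1 and 46 of the 66 of RT2 also came from 1 cell each. In RT3 0 of 22 cells had a UMI, for which 3 UMIs would be 95.04 CPM and the exact Poisson upper bound is 117 CPM. In CD8 T-like cells, Csf2 was 30.9 CPM in NT (7 UMIs in 5 of 113 cells) and 197, 91.0 and 65.7 CPM in RT (25, 47 and 12 UMIs in 6 of 70, 12 of 172 and 6 of 86 cells). Every RT library was higher, but 1 cell held 68.0%, 42.6% and 33.3% of the UMIs. Gamma delta T-like and NK-like cells had 41.8 and 23.8 CPM in NT, from 4 and 3 UMIs, and 62.1 ± 25.99 and 41.2 ± 15.7 CPM in RT.

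Csf3 was barely detected. Over all kept cells there were 10 UMIs in NT and 8, 17 and 11 in RT. Tumor-like cells gave 7, 4, 8 and 0 UMIs, and macrophage-like cells gave 0, 4, 6 and 7. At these counts no difference between NT and RT could be detected, and the ligand of Csf3r was not measured at a usable depth in any class.

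Csf1r was a gene of the mononuclear phagocytes. Macrophage-like cells held 64.2% of its UMIs in NT and 63.1%, 63.5% and 55.997% in RT, and all myeloid classes together held 87.5% to 90.3%. By mean over the 4 libraries the level was 640 CPM in macrophage-like, 593 in monocyte-like and 405 in conventional DC-like cells. The ranges of these 3 classes overlapped, but the order was the same in every library. The next class, neutrophil-like cells, was at 65.8 CPM, below the range of the 3. In tumor-like cells Csf1r was 0.130 CPM in NT (7 UMIs) and 0.613 to 2.63 CPM in RT. Per C1qb UMI there were 0.149 Csf1r UMIs in NT and 0.362, 0.188 and 0.171 in RT. Macrophage-like cells had 0.193 in NT and 0.252, 0.141 and 0.149 in RT. The part of macrophage RNA in the tumor-like value was not tested.

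Csf1r was higher after radiation in each of these classes. In macrophage-like cells the NT level was 363 CPM (95% interval 339.6 to 388) and the RT levels were 960.2, 698 and 537 CPM, a log2 ratio of 0.97 ± 0.42. No RT library overlapped NT, but RT3 was under 1.5 times NT, so Csf1r was not past the fold. In monocyte-like cells it was 354 CPM in NT and 932, 616 and 471 CPM in RT (log2 ratio 0.87 ± 0.50). In conventional DC-like cells it was 212 CPM in NT and 712, 378 and 317 CPM in RT (log2 ratio 1.05 ± 0.61). RT1 was the highest and RT3 the lowest RT library in all 3 classes.

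The difference was seen in nearly every sub-cluster. Of the 6 macrophage-like sub-clusters, 5 had Csf1r above NT in every RT library, and all 3 monocyte-like sub-clusters did. The highest level in RT was in sub-cluster 1, led by Lyve1, Cd163 and Cd209f, at 483 CPM in NT and 1100.0, 829 and 690.1 CPM in RT. Sub-cluster 9, led by Crip1 and Cd52, was the exception, at 529 CPM in NT and 560, 533 and 487 CPM in RT. With the sub-cluster makeup held at that of NT, the ratio was 0.91 ± 0.36 in macrophage-like and 0.85 ± 0.51 in monocyte-like cells, close to the values measured.

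The share of macrophage-like cells with at least 1 Csf1r UMI was 56.5% in NT (exact Clopper-Pearson 95% interval 52.6% to 60.5%) and 79.9%, 83.0% and 58.9% in RT. After thinning each cell to 1000 UMIs, which left out 62 NT and 117 to 240 RT cells per library, the shares were 27.1% in NT and 56.2%, 47.4% and 38.0% in RT. NK-like cells, which should lack the gene, showed 1.12% in NT and 2.14%, 2.15% and 0% in RT before thinning (1, 3, 4 and 0 cells). Their median depths were 1095, 1264.5, 1478 and 1402 UMIs, against 3132, 2792.5, 4629.5 and 2389 in macrophage-like cells. The 0 of 109 NK-like cells in RT3 had an exact upper bound of 3.33%. The macrophage markers themselves were also higher in RT in these cells: the 8 genes of the list summed to 8775 CPM in NT and 14475, 16049.7 and 13092 CPM in RT, with C1qb the most abundant. Per C1qb UMI, Csf1r was 0.193 UMIs in NT and 0.252, 0.141 and 0.149 UMIs in RT, so relative to C1qb RT1 was above NT and RT2 and RT3 were below it.

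**Figure D3:**
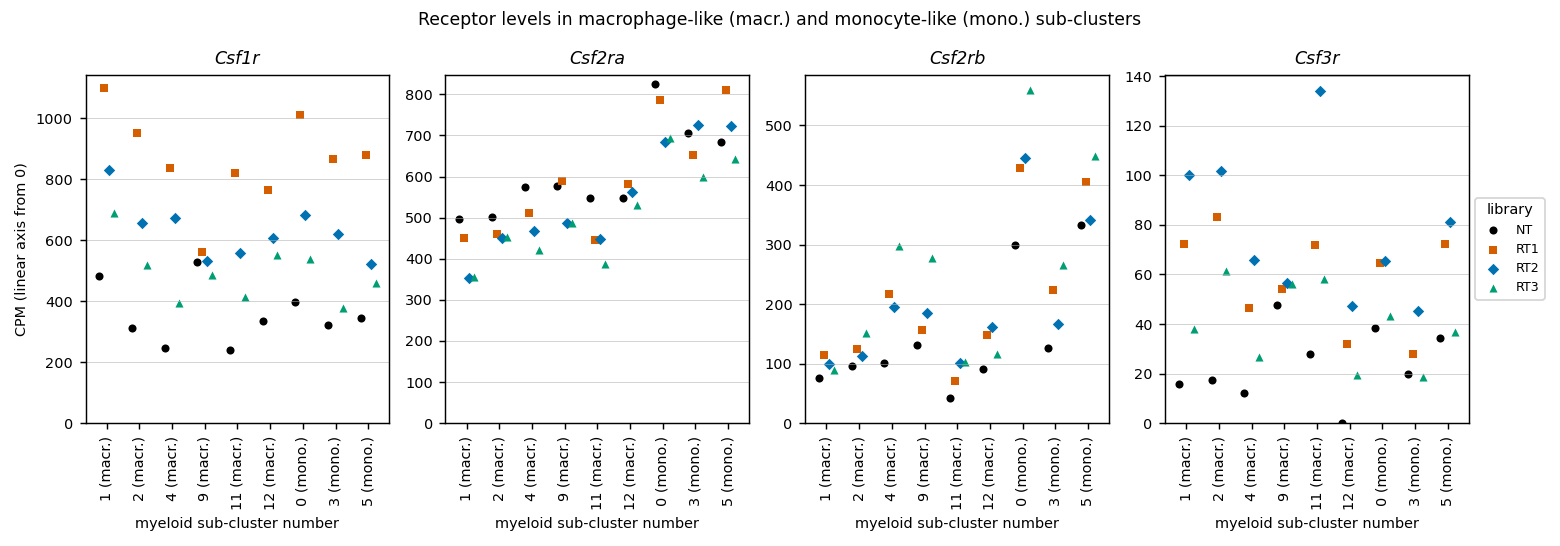
Levels of the 4 receptor genes in the 6 macrophage-like and 3 monocyte-like sub-clusters, 1 point per library, on a linear CPM axis from 0. The NT points of Csf1r, Csf2rb and Csf3r lie at the bottom of nearly every column, whereas those of Csf2ra lie among or above the RT points.

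Csf2ra, the GM-CSF alpha chain, showed a different pattern from Csf1r in the same cells. Its order by mean level was conventional DC-like (856 CPM), monocyte-like (712), macrophage-like (461), Ccr7 DC-like (407) and neutrophil-like cells (356). The ranges of the first 3 classes did not overlap, and the last 3 did. This order is given for the main values only. Over the alternatives that gave a value, the conventional DC-like level ran from 500 to 872 CPM, so its first place is uncertain. In macrophage-like cells it was 528 CPM in NT and 473, 427 and 415 CPM in RT, lower in each with a log2 ratio of -0.27 ± 0.10. In monocyte-like cells NT (743 CPM) lay within the RT range of 653 to 744 CPM, and in conventional DC-like cells NT (859 CPM) lay within that of 760 to 1010 CPM. Of the 6 macrophage-like sub-clusters 4 had Csf2ra below NT in every RT library and 0 had it above.

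Csf2rb, the beta chain, differed from Csf2ra in direction in macrophage-like cells. Macrophage-like cells had 94.2 CPM in NT (226 UMIs) and 135, 127 and 168 CPM in RT, a log2 ratio of 0.60 ± 0.21. In monocyte-like cells NT stood at 231 CPM and RT at 351, 321 and 442 CPM (0.67 ± 0.24), and conventional DC-like cells were at 343 CPM in NT and 475, 430 and 560 CPM in RT (0.50 ± 0.19). RT3 was the highest RT library in all 3 classes, where it had been the lowest for Csf1r. All 6 macrophage-like and all 3 monocyte-like sub-clusters had Csf2rb above NT in every RT library.

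Sub-cluster 4 (Cxcl5, Cd36 and Mmp12) had the highest Csf2rb among macrophage-like sub-clusters in RT, at 216, 195 and 298 CPM against 102 CPM in NT. Sub-cluster 0 (Chil3, Ly6c2 and Ccr2) had the highest among monocyte-like ones in RT, at 429, 445 and 560 CPM against 299 CPM in NT. The neighbouring paralog Csf2rb2, which encodes a beta chain used by the IL-3 receptor, is nearly identical in sequence, so reads may be split between the pair and both levels are uncertain. Csf2rb2 was 56.2 CPM in NT and 94.9 ± 15.96 CPM in RT in macrophage-like cells, above NT in every RT library as Csf2rb was.

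Both chains of the GM-CSF receptor were seen together in some cells of each class. The share of cells with UMIs of both Csf2ra and Csf2rb was 37.6% in NT and 53.9%, 47.4% and 40.9% in RT for conventional DC-like cells, 14.5% and 26.7%, 35.5% and 25.2% for monocyte-like cells, and 21.2% and 23.6%, 33.6% and 21.5% for macrophage-like cells. Csf2rb was seen in a larger share of the cells with Csf2ra than of those without it in every library of these classes except NT monocyte-like cells (24.3% against 26.6%). These shares were not corrected for depth or for background RNA, and no doublets were removed.

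Outside the myeloid classes Csf2rb was present in endothelial-like cells, at 78.9 CPM in NT (14 UMIs) and 161, 324 and 143 CPM in RT. RT2 was the highest, and the summed macrophage markers in the endothelial-like cells were also highest there (580 CPM, against 5.64 CPM for NT, 61.2 CPM for RT1 and 25.2 CPM for RT3); their part in the value was not tested. Csf2rb2 in these cells was 130 CPM in NT and 211, 237 and 151 CPM in RT. The alpha chain Csf2ra was 16.9 CPM in NT, from 3 UMIs, and 29.4 ± 7.43 CPM in RT in endothelial-like cells.

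Csf3r was, by level, a neutrophil gene. Neutrophil-like cells stood at 265 CPM in the NT library (15 UMIs, 95% interval 148 to 437) and at 842, 1175 and 613 CPM in RT, and no other class reached 100 CPM. By UMIs, however, more Csf3r came from macrophage-like cells, which held 47.6% in NT and 51.5%, 50.9% and 41.9% in RT, than from neutrophil-like cells, which held 17.9% in NT and 25.7%, 25.3% and 29.9% in RT. Macrophage-like cells outnumbered the neutrophil-like cells by 626 to 23 in NT and by 2416 to 184, 2298 to 254 and 1404 to 125 in RT.

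The level in neutrophil-like cells differed with the depth of the cell. In the 17 NT cells under 1000 UMIs Csf3r was 1184 CPM and Rhox5 182 CPM, while in the 6 deeper cells Csf3r was 43.8 CPM and Rhox5 898 CPM. Csf2ra in the shallow cells was 1002 CPM in NT and 1043, 839 and 899 CPM in RT, so RT2 and RT3 were below NT there. In RT the shallow cells had 1822, 2497 and 1481 CPM of Csf3r. The distance to NT was smaller among shallow cells, though each RT library was still higher. The whole neutrophil-like class held only 15 Csf3r and 13 Csf2ra UMIs in NT. The shallow NT values rest on part of these, so the order of NT and RT among shallow cells is uncertain. The mean level over the 4 libraries, 724 CPM, moved to 1550 CPM without the cells of highest doublet score and to 311 CPM in cells thinned to 2000 UMIs.

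In macrophage-like cells Csf3r was 16.7 CPM in NT, from 40 UMIs with a 95% interval of 11.9 to 22.7, and 68.8, 93.3 and 45.0 CPM in RT. This was past the fold, with a log2 ratio of 1.99 ± 0.53, and was the only 1 of the 5 members tested in macrophage-like cells to be so. Among the 6960 genes tested there, 7.28% were past the fold upwards and 5.65% downwards. All 6 macrophage-like sub-clusters had Csf3r above NT in every RT library, with 2 of the 6 at under 3 UMIs in NT. The share of cells with a Csf3r UMI was 5.59% in NT and 19.6%, 33.5% and 11.3% in RT, and 1.77% and 7.58%, 8.80% and 3.82% after thinning to 1000 UMIs. Monocyte-like cells had 29.4 CPM in NT (24 UMIs) and 53.1, 63.0 and 33.9 CPM in RT, and RT3 lay within the interval of NT (18.8 to 43.7).

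Csf3r was also set beside a main neutrophil RNA. There were 0.0811 to 0.142 Csf3r UMIs per UMI of S100a8, an abundant neutrophil gene, in neutrophil-like cells, and 4.50 to 12.4 in macrophage-like cells. S100a8 itself stood at 2.08 CPM in macrophage-like cells of NT and at 5.53, 20.4 and 9.99 CPM in RT, so it was also higher in every RT library. The part of neutrophil RNA in the Csf3r of macrophage-like cells was not tested. Monocyte-like cells had 0 S100a8 UMIs in NT and 0.542 to 1.66 Csf3r UMIs per S100a8 UMI in RT.

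**Figure D4:**
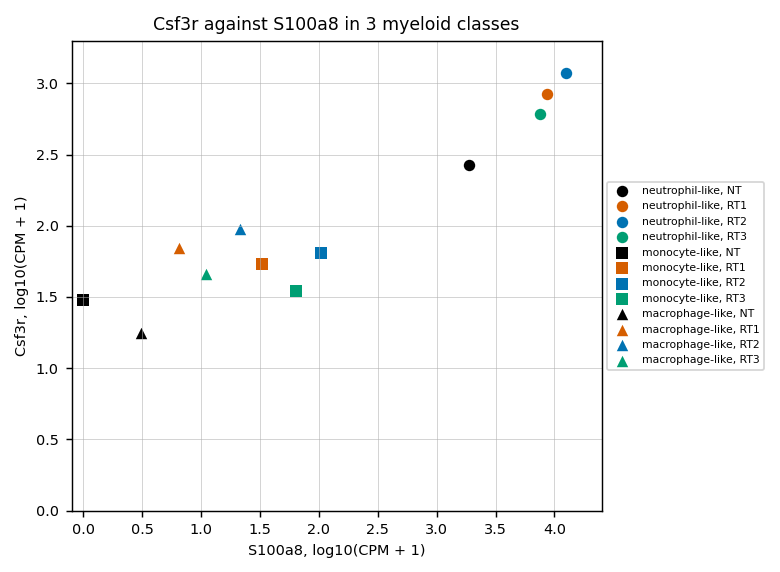
Csf3r against S100a8 in neutrophil-like (circles), monocyte-like (squares) and macrophage-like (triangles) cells of each library, both axes log10(CPM + 1). Macrophage-like points reach 93.3 CPM of Csf3r with at most 20.4 CPM of S100a8, whereas neutrophil-like points have 1872 to 12660 CPM of S100a8.

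Counted together, 4 of the 5 members tested in macrophage-like cells (Csf1, Csf1r, Csf2rb and Csf3r) were above NT in every RT library and 1 (Csf2ra) was below, where 33.5% of the genes tested were above and 33.2% below. In monocyte-like cells 4 of 5 (the same except that Csf2ra was neither) were above and 0 below, against 44.1% above and 23.2% below among all genes. The median log2 ratio of the members was 0.63 in macrophage-like and 0.72 in monocyte-like cells, beside 0.00 and 0.14 over all genes tested. The macrophage-like median is the value of Csf1, which was 1.08 after thinning each cell to 2000 UMIs. The monocyte-like median is the value of Csf3r, which was 0.11 without Harmony, the alignment of the libraries before clustering.

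Over all kept cells, the 4 receptor genes were higher in every RT library than in NT, by amounts that differed between receptors and libraries, while Csf1 was nearly level. Csf1r was 19.6 CPM over all kept NT cells and 163, 127 and 47.3 CPM in RT, a log2 ratio of 2.34 ± 0.94. Csf2ra was 34.9 CPM in NT and 98.9, 103 and 50.9 CPM in RT (1.204 ± 0.57), so RT3 was not past 1.5 times NT. Csf1 was 201 CPM in NT and 220, 202 and 243 CPM in RT, a log2 ratio of 0.14 ± 0.13 that was 0.0048 after thinning each cell to 2000 UMIs. Csf3r was 1.21 CPM in NT, from 84 UMIs, and 14.3, 21.2 and 5.30 CPM in RT (3.27 ± 1.03).

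The myeloid classes also held more of the cells in RT. Macrophage-like cells were 6.28% of NT cells and 13.6% ± 3.70 of RT cells, monocyte-like cells 5.05% and 11.7% ± 0.848, and neutrophil-like cells 0.231% and 1.25% ± 0.433. The class makeup was then held at that of NT, with each class weighted by its share of the UMIs of a library, so that the number of cells and the RNA per cell enter together. At the NT makeup the ratio of Csf2ra was -0.09 ± 0.12, against the 1.204 measured. For Csf1r the same weighting left 1.04 ± 0.50 of 2.34, for Csf2rb 0.69 ± 0.13 of 1.96 and for Csf3r 1.79 ± 0.54 of 3.27. For Csf1 it gave 0.25 ± 0.07, above the 0.14 measured. Tumor-like cells were 59.6% of NT cells and 42.2% ± 5.64 of RT cells. These shares leave out the shallow cells with tumor-like Rhox5, which were 13.9% of NT cells and 10.4% ± 2.00 of RT cells.

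**Figure D5:**
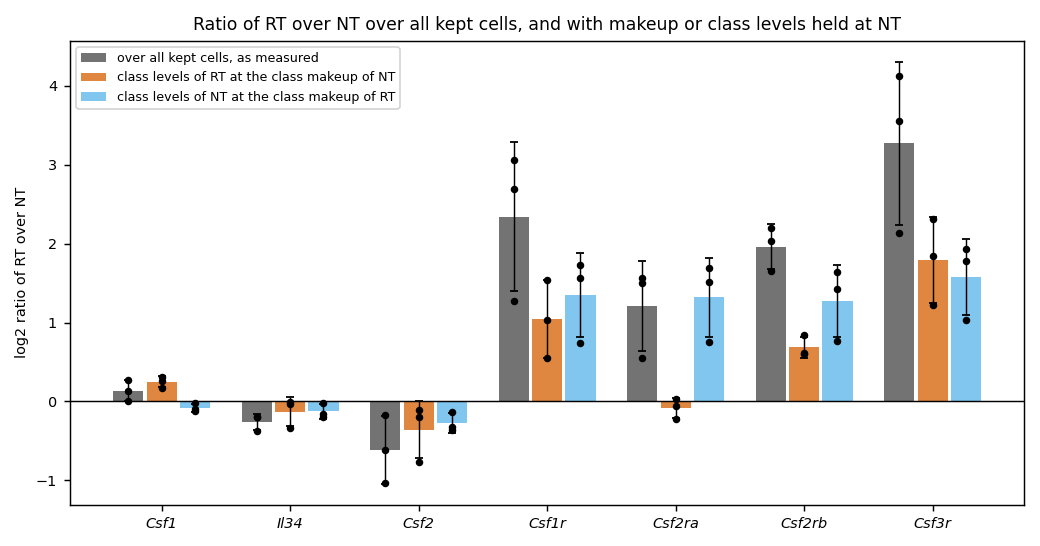
Log2 ratio of RT over NT for 7 genes over all kept cells (grey), with RT class levels at the UMI makeup of NT (orange), and with NT class levels at the UMI makeup of RT (blue); bars are means of 3 RT libraries, error bars SD and dots the libraries. The orange bar of Csf2ra is near 0, while those of Csf1r, Csf2rb and Csf3r keep 1.04, 0.69 and 1.79; Csf3 is left out for its few UMIs.

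The genes downstream of these receptors are read against the shares of all tested genes past the fold upwards, 7.28% in macrophage-like, 12.6% in monocyte-like and 3.7% in tumor-like cells. Of 18 genes of CSF-1 receptor signalling, 16 were tested in macrophage-like cells and only Syk, a tyrosine kinase, was past the fold upwards (33.7 CPM in NT; 72.2, 87.5 and 58.3 CPM in RT), with a median log2 ratio of 0.04 over the list, a count near the share of all genes. In monocyte-like cells 1 of 16 was past the fold, Tyrobp, the ITAM adaptor DAP12, at 328 CPM in NT and 668, 1049.9 and 706 CPM in RT. Tyrobp in macrophage-like cells was 432 CPM in NT and 613, 951 and 668 CPM in RT, and was not past the fold. In tumor-like cells 0 of the 9 genes tested were.

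Of 18 genes of beta common and G-CSF receptor signalling, 17 were tested in macrophage-like and 17 in monocyte-like cells. In monocyte-like cells 4 of the 17 were past the fold upwards and 0 downwards, where 12.6% and 2.98% of all genes were: the kinases Jak2 (55.1 CPM in NT; 92.6, 92.3 and 98.2 CPM in RT) and Tyk2, the adaptor Shc1 and the feedback inhibitor Socs2. Socs2 (9.79 CPM in NT; 26.4, 16.1 and 19.0 CPM in RT) was under 10 CPM in NT and met the filter, a mean of 10 CPM over the libraries, only through RT, so its call is no support for the count. The same holds in macrophage-like cells, where Socs2 (7.50 CPM in NT; 14.8, 12.8 and 12.4 CPM in RT) was the only 1 of the 17 past the fold. In tumor-like cells 0 of 13 were. Cish was 26.9 CPM in NT and 31.3, 39.1 and 30.3 CPM in RT in monocyte-like cells. Socs3 was 1428 CPM in NT and 859, 975.5 and 754 CPM in RT in the same cells, lower in each.

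Among partners and relatives, 5 of the 11 genes in the tables (of 13 listed) were tested in macrophage-like cells. Trem2, a lipid receptor that signals through DAP12, was past the fold, at 219 CPM in NT and 358, 353 and 376 CPM in RT; Csf2rb2 was not. Il3ra, the alpha chain of the IL-3 receptor, was 7.50 CPM in NT and 1.44, 8.35 and 6.42 CPM in RT. In monocyte-like cells 0 of 5 were past the fold, and in tumor-like cells 0 of 3.

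Of 18 transcription factors of the receptor genes tested in monocyte-like cells, 13 were below NT in every RT library, against 23.2% of all genes. Of the 18, 2 were past the fold downwards and 2 upwards, where 2.98% and 12.6% of all genes were, and the median log2 ratio was -0.45 against 0.14 over all genes. Cebpa, a myeloid C/EBP factor, was 117 CPM in NT and 37.4, 71.1 and 54.1 CPM in RT, and Klf4, a monocyte factor, was 2000.4 CPM in NT and 1173 to 1274 CPM in RT. Fli1 (31.8 CPM in NT and 51.3 to 59.1 CPM in RT) and Tfec (26.9 CPM and 60.5 to 86.6 CPM) were higher.

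Spi1, which encodes PU.1, was 429 CPM in NT and 217, 299.6 and 236 CPM in RT in monocyte-like cells. In macrophage-like cells it was 345 CPM in NT and 231, 282 and 246 CPM in RT. All RT libraries were thus lower in both, as were 23.2% of all genes in monocyte-like and 33.2% in macrophage-like cells. A link between Spi1 and the receptor levels was not tested. Of the 18 factors tested in macrophage-like cells 6 were below NT in every RT library and 4 above, where 33.2% and 33.5% of all genes were, with a median log2 ratio of -0.12. In that class 0 were past the fold, and of 9 in tumor-like cells 0. Cebpe, a granulocyte factor, was at 0 in neutrophil-like cells of every library.

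Of the known inducers of the ligand genes, Il1b, a cytokine that induces Csf2 and Csf3, was past the fold downwards in macrophage-like and monocyte-like cells. It was 1 of 10 genes tested in each, where 5.65% and 2.98% of all genes were past the fold downwards. In monocyte-like cells it was 12634 CPM in NT and 4033, 4510.1 and 3880.0 CPM in RT, and in macrophage-like cells 2238 CPM in NT and 604, 977 and 765 CPM in RT. Tlr4, the lipopolysaccharide receptor, was past the fold upwards in monocyte-like cells, as were 12.6% of all genes there (15.9 CPM in NT; 64.1, 51.8 and 57.4 CPM in RT). The other 9 of the 10 tested in macrophage-like cells, 8 of the 10 in monocyte-like cells and all 6 in tumor-like cells were not past the fold.

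Across the 12 named classes, the genes most like each member were found by Pearson's r of mean log2(CPM + 1), as a description over classes that share libraries. For Csf3r they were Fpr1 (0.98), a formyl peptide receptor of neutrophils, Mmp8 (0.97) and Siglece (0.97). For Csf1r they were Plbd1, Clec4a3 and Clec4a1 (0.97 each), and for Csf2ra Il1b (0.97), Btk (0.96) and Spi1 (0.96). Csf2rb was most like Nod2 (0.95), its paralog Csf2rb2 (0.95) and Slc7a11 (0.92). Within single libraries r was lower. The lowest value was 0.755 for Csf3r (with Siglece), 0.686 for Csf1r (Plbd1), 0.770 for Csf2ra (Spi1) and 0.725 for Csf2rb (Nod2).

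Csf1 was most like Bcat1 (0.89), 1810055G02Rik (0.88) and Mnd1 (0.88), but within single libraries r ran from 0.31 to 0.80 for Bcat1, from -0.07 to 0.81 for 1810055G02Rik and from 0.52 to 0.78 for Mnd1. Il34 was most like Tead3 (0.98), Crabp1 (0.97) and Ltbp1 (0.97), all highest in fibroblast-like cells, with a lowest r in a single library of 0.645 (Ltbp1). Csf2 was most like Cenpl, Hp1bp3 and Zfp367 (0.96, 0.96 and 0.95), with r of 0.53 to 0.87 in single libraries. Csf3 had too few UMIs to be compared.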

How the data were processed

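The 4 libraries were made with the SeekOne MM 3′ single-cell kit. The deposited values are UMI counts per gene and cell barcode, made by the authors before deposit and not normalized; the submitters' processing notes name STAR 2.5.1b, featureCounts of Subread 1.6.4, Cell Ranger and GRCm39, without giving their roles. The table of RT2 appeared to be already filtered, judging by its fewer genes and its low mitochondrial maximum. No column was left unmapped. The 8 members, the gene lists and the tests were chosen with earlier results of these data known.

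A cell was retained if it had 200 or more genes and no more than 20% mitochondrial UMIs. The 2000 most variable genes, without the members and listed genes, gave 30 principal components, which were aligned with Harmony and clustered (20 neighbours, Leiden resolution 0.8, seed 1). Clusters were split again and named from markers. Sub-clusters nearest to another family with a log2 marker score of 1 or more were set apart as mixed, those below that score kept the class of their cluster, and matrix-led clusters were set apart as Lum-high; both choices, and the class-balanced naming score, were settled after the data had been seen. No cell was removed as a doublet in the main values; leaving out the 8% of highest doublet scores was an alternative. UMIs were summed per library and class and given as CPM. Counts under 3 were set to 3 before ratios. Genes with a mean of at least 10 CPM were tested against the fold of 1.5; no p-value was computed, since NT is 1 library. Named genes were the members, listed genes past the fold (up to 8 per class), Csf2rb2, Il3ra, Tyrobp, Spi1, Cebpe, Socs3, Cish and Il1b in all cases, and the 3 genes most like each member with 100 or more UMIs, among genes reaching 50 CPM in a class. Python 3.11.15, NumPy 2.4.6, SciPy 1.17.1, pandas 2.3.3, scikit-learn 1.9.0, leidenalg 0.10.2, igraph 0.11.9 and matplotlib 3.10.9 were used. Depth and filters are given with the results, and alternatives in the closing section. Promoter sequences come from RefSeq (GRCm38.p6), a different build from the one in the notes, and no coordinate was moved between builds.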

Additional observations from a re-analysis of the deposited data

Results flagged for a closer look

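Over whole classes, Csf2ra stood on opposite sides of NT. In tumor-like cells all 3 RT libraries were above NT (log2 ratio 1.36 ± 0.54, at 0.555 CPM in NT and 1.01 to 2.12 CPM in RT), and in macrophage-like cells all 3 were below (-0.27 ± 0.10), a difference of 1.627 on the log2 scale. In neutrophil-like cells all 3 were above (0.78 ± 0.27, from 13 UMIs in NT), which differs from macrophage-like cells by 1.049. Among neutrophil-like cells under 1000 UMIs, most of the class, Csf2ra was 1002 CPM in NT and 1043, 839 and 899 CPM in RT. RT2 and RT3 were thus not above NT there, but this NT value rests on 17 cells and on part of the 13 UMIs. In tumor-like cells the macrophage gene C1qb was also higher in RT (47 UMIs in NT and 340, 725 and 217 in RT), and there were 0.638 Csf2ra UMIs per C1qb UMI in NT and 0.185, 0.185 and 0.281 in RT, so Csf2ra was higher by less than C1qb. The part of macrophage RNA in the tumor-like difference was not tested. Neither difference was tested, and all ratios share the 1 NT library.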

How the results depend on the processing

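No paired analysis was possible because NT is 1 library and carries no replicate number shared with RT1 to RT3. Ratios near 0 crossed it under some alternatives (Csf2ra in monocyte-like cells ran from -0.21 to 0.19 and Csf1 in neutrophil-like cells from -0.18 to 0.42). Of the alternative values, 207 ratios, 48 levels and 20 counts stayed near the reported value and 21, 8 and 16 moved. The log2 ratio of Csf1 in tumor-like cells (0.27) was 0.36 without Harmony, 0.16 as a mean over cells and 0.19 after thinning to 2000 UMIs. That of Csf2rb in monocyte-like cells (0.67) was 0.41 as a mean over cells and 1.07 after thinning. In conventional DC-like cells that of Csf2rb (0.50) was 0.30 with the mixed sub-clusters kept and 0.32 after thinning. That of Csf1 over all kept cells (0.14) was 0.0048 after thinning. Of single genes in monocyte-like cells, Csf1 (1.09) was 1.48 without Harmony, 1.35 under the strict cell filter and 1.87 after thinning, and Csf3r (0.72) was 0.11 without Harmony. Csf1 in macrophage-like cells (0.63) was 1.08 after thinning. The cause of these shifts was not tested.

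With a fold of 2 in place of 1.5, fewer genes were past it by construction: 74 higher and 9 lower in tumor-like, 166 and 142 in macrophage-like and 328 and 56 in monocyte-like cells. Without the filter on low values there were 1244 higher and 218 lower in tumor-like cells, 947 and 1973 in macrophage-like cells and 1089 and 1905 in monocyte-like cells. Leaving out 1 RT library each time gave 311 to 490 higher and 73 to 164 lower genes in tumor-like, 540 to 700 and 473 to 558 in macrophage-like, and 912 to 1118 and 290 to 366 in monocyte-like cells. Over the same omissions the ratio of Csf1r ran from 0.75 to 1.17 in macrophage-like and 0.61 to 1.10 in monocyte-like cells, and that of Csf3r in macrophage-like cells from 1.74 to 2.27. The level of Csf2ra and the ratios of Csf1r, Csf2ra and Csf2rb in conventional DC-like cells had no value at resolutions 0.5 and 1.2, without Harmony or under the strict cell filter, because no cluster was named so. Keeping the mixed sub-clusters was an alternative added after the data had been seen. NT holds 23 neutrophil-like cells and 3 mixed tumors, so no value here shows the spread between mock-treated tumors.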
